A study of Mus musculus with 2 samples.

Results

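Far intergenic open regions are stretches of accessible chromatin that lie outside every annotated gene and have their centre more than 100 kb from the start of every protein-coding gene. They were taken from the regions found in both replicate lists (overlap of at least 1 bp), against the GENCODE M21 annotation of mouse, and 4626 of 84380 shared regions met the rule. That is 5.48% of all shared regions and 19.2% of the intergenic ones. Apart from the need to be in both lists, which leaves out mostly weak regions, the choice used position alone. The other shared regions fell into 19489 intergenic regions nearer to a coding gene start, 38799 regions inside genes and 21466 promoter regions within 1 kb of a transcript start.

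The regions are labelled as ATAC-seq, which uses a transposase to cut and tag DNA that nucleosomes leave free, done on primary T-helper 1 cells from the mouse strain C57BL/6NJ. There was 1 group with 2 biological replicates, which carry different biosample names under the same donor identifier, with sex not collected and age unknown. The authors' region names also hold words of a library insert, and whether the signal is that of plain ATAC-seq or of the insert of a reporter library was not tested. No treatment, genotype contrast or second condition is labelled, and the spread between the replicates may be technical. The authors' lists held 98875 regions in replicate 1 and 91488 in replicate 2, and the number of reads behind them is unknown.

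The T-helper 1 type of CD4+ T cell makes interferon gamma and acts against intracellular pathogens. Open regions far from genes are often enhancers or sites of the insulator protein CTCF, and an enhancer can act on a gene start many kilobases away through looping of the chromatin, skipping genes in between. Long intervals without coding genes flank many genes of development and of the immune system. A desert here is the interval between neighbouring coding gene starts, whatever its length, so it can hold the body of a coding gene. Accessibility alone does not say which gene, if any, a region acts on, so the flanking genes below are given as neighbours and not as targets.

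The labelled cell type was checked at promoters. A shared region lay within 1 kb of a start of all 7 T cell markers examined, which were Cd3e, Cd3g, Cd4, Lck, Tbx21, Ifng and Il12rb2. The weakest of these was Cd4, with a signal of 2.29 in replicate 1 and 2.33 in replicate 2, and the strongest was Lck, with 9.81 and 10.1. Among markers of other cell types, Cd8b1, Pax5, Cd14 and Col1a1 also had one, with signals from 7.32 to 12.1 over both replicates. The markers Cd8a, Cd79a, Lyz2, Csf1r, Hba-a1, Alb, Apoa2 and Cdh5 had none. An open promoter is not a measure of expression, and the part of other cells in the far regions was not tested.

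The sequences below are those around the summits of the strongest far regions, shown because they carry the highest signals away from genes, and of the strongest far region in each of the 4 deserts that hold the most of them, a set added after the values were seen. Each is about 200 bases of the plus strand of GRCm38.p6, the assembly named mm10, centred on the summit of the replicate with the stronger signal. Capitals mark exact matches, on either strand, to the motifs described further below.
Strongest far region, between Gm8797 and 1700008P02Rik, at chr3:5860415-5860615: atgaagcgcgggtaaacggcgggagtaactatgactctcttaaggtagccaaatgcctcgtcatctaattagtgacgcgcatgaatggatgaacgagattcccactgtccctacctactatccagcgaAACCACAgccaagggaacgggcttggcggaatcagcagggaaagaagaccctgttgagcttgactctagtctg
Next strongest, between B430305J03Rik and Arhgef26, at chr3:62159092-62159292: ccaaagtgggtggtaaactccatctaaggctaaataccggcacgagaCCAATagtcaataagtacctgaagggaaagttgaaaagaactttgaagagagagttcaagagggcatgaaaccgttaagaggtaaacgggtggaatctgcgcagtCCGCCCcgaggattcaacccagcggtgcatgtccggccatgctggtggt
Strong region between Arg1 and Akap7 at chr10:25128675-25128875: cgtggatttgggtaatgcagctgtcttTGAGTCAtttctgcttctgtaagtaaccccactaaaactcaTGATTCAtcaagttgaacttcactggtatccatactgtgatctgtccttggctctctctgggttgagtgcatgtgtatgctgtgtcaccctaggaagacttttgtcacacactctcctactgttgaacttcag
Strong region between Fut8 and Gm6657 at chr12:77887461-77887661: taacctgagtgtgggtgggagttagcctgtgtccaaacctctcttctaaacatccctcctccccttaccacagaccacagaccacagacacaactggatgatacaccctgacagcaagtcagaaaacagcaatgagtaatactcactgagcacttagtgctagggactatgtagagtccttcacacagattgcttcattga
Strong region between Car2 and Gm9733 at chr3:15139624-15139824: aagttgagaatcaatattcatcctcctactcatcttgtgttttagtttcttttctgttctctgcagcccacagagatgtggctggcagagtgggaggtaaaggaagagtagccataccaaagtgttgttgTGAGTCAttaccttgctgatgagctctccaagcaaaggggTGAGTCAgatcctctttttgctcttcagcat
Desert between Vrk1 and 3110018I06Rik at chr12:106649604-106649804: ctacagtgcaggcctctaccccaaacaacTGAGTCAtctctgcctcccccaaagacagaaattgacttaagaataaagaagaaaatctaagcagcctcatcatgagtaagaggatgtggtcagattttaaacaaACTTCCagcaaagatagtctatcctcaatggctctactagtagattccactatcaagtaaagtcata
Desert between Foxo1 and Cog6 at chr3:52369259-52369459: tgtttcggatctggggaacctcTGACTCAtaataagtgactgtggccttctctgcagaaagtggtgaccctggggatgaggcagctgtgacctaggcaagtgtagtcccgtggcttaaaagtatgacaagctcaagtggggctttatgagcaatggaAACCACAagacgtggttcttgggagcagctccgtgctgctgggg
Desert between Ccdc54 and Cblb at chr16:51650202-51650402: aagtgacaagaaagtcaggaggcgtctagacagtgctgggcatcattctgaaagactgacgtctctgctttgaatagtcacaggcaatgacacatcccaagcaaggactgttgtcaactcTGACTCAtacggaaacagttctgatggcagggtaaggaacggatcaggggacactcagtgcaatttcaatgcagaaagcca
Desert between Id2 and Rnf144a at chr12:25851678-25851878: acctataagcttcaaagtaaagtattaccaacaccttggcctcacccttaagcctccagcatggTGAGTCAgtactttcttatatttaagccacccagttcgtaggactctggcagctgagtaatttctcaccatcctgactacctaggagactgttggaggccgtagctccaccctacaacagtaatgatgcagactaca

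In the desert windows the capitals starting TGA are AP-1 matches, the letters bound by Jun, Fos and BATF dimers, and all 4 of them hold one. Each of the 4 was chosen as the strongest far region of its desert. AP-1 letters were in 35.7% of all far windows, 26.1% of all shared windows, and 46.8% of the strongest of 4 equal parts of far regions by signal. The Foxo1 window also holds AACCACA, the RUNX motif read on the opposite strand. The strongest window holds the same RUNX letters, and the next strongest holds a match of NFY and a match of the KLF and SP factors, without an AP-1 match.

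The sequence that could hold a far region was counted to give a density. It came to 778 Mb, 29.4% of the 2648 Mb of assembled sequence, and held 5.95 far regions per Mb. The rest of the chromosomes held 42.7 shared regions per Mb, which is 7.17 times as many. All far regions together covered 3.31 Mb.

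Chromosomes differed in how many far regions they held. Chromosome 13 had the most, 479 regions at 15 per Mb of eligible sequence, followed by chromosome 12 with 389 at 8.74 per Mb and chromosome 10 with 347 at 10.3 per Mb. These 3 chromosomes held 1215 of the 4626. Chromosome 2 had 344, chromosome 15 had 304 and chromosome 19, the shortest of the autosomes, had 52. Chromosome X had 131 far regions in 56.4 Mb, a density of 2.32 per Mb, and chromosome Y had none in 56.4 Mb of eligible sequence and 7 shared regions in all. As a share of all shared regions on a chromosome, far regions ranged over the autosomes from 1.69% on chromosome 11 to 11.6% on chromosome 13. The density in the rest of each autosome, by contrast, lay between 37.1 per Mb on chromosome 14 and 63.7 per Mb on chromosome 11, so the far density, which ran from 4.21 to 15 per Mb over the autosomes, varied more than the density nearer to genes did.

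**Figure D1:**
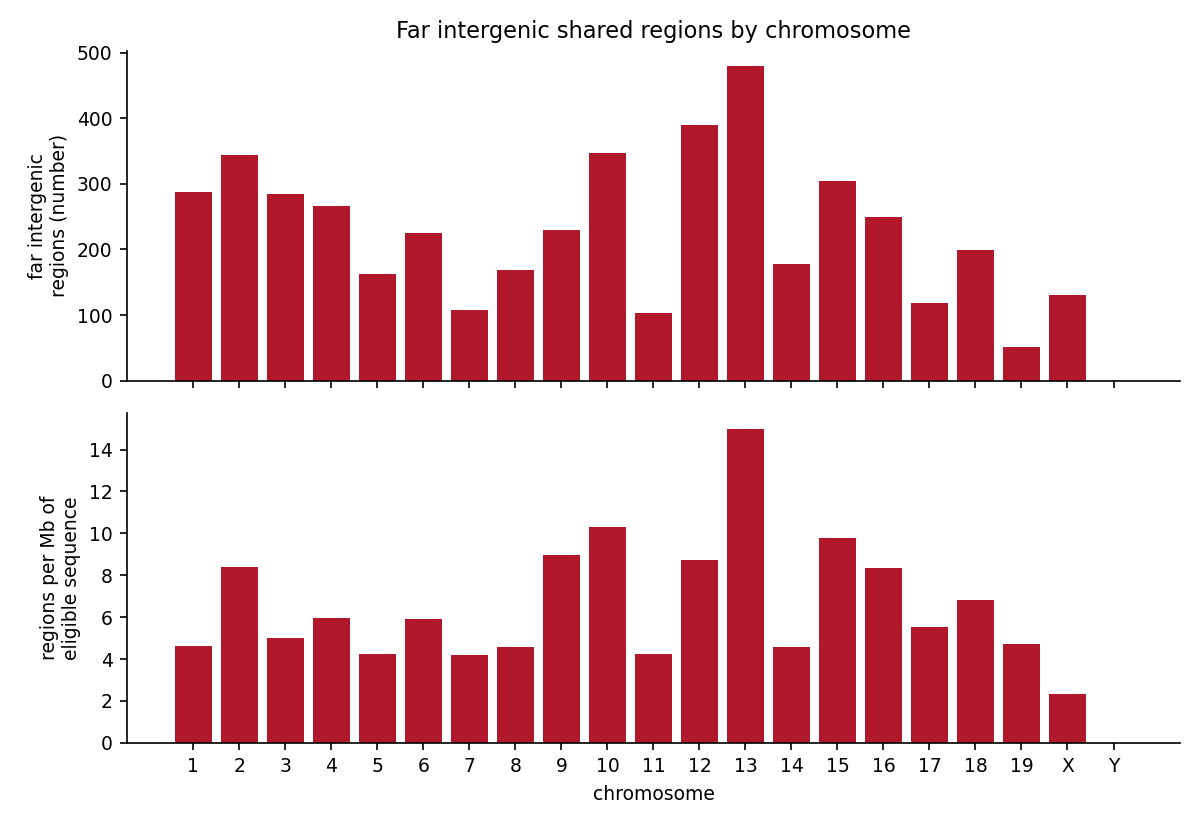
Number of far intergenic shared regions on each chromosome (upper panel) and their number per Mb of eligible sequence (lower panel). Chromosome 13 is highest in both, with 479 regions and 15 per Mb, while chromosome X has 2.32 per Mb and chromosome Y none.

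Far regions thinned out with distance. The median distance from the nearest coding start was 179 kb, with quartiles of 130 and 279 kb and a highest value of 2.13 Mb. Of the far regions, 2661 (57.5%) lay 100 to 200 kb away, at 12.1 per Mb of eligible sequence. The density was 6.80 per Mb at 200 to 300 kb, 3.86 at 300 to 500 kb, 1.87 at 500 to 1000 kb and 0.692 beyond 1000 kb, where 54 regions lay in 78.0 Mb. The median signal changed much less: it was 6.92 in replicate 1 and 6.65 in replicate 2 at 100 to 200 kb, and 6.43 and 6.53 beyond 1000 kb. Signal is the enrichment of a region as the authors' region caller gave it, and what it is relative to is not stated. The median −log10 q, the statistical score of a region, was lower in the farthest bin. It was 33.6 and 28.4 at 100 to 200 kb, and 22.2 and 20.7 beyond 1000 kb. The median width was 654 bp at 100 to 200 kb and 578 bp beyond 1000 kb. The share of G and C letters (GC) of the summit window fell along the same bins, with a mean of 47.1% at 100 to 200 kb and 42.4% beyond 1000 kb.

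**Figure D2:**
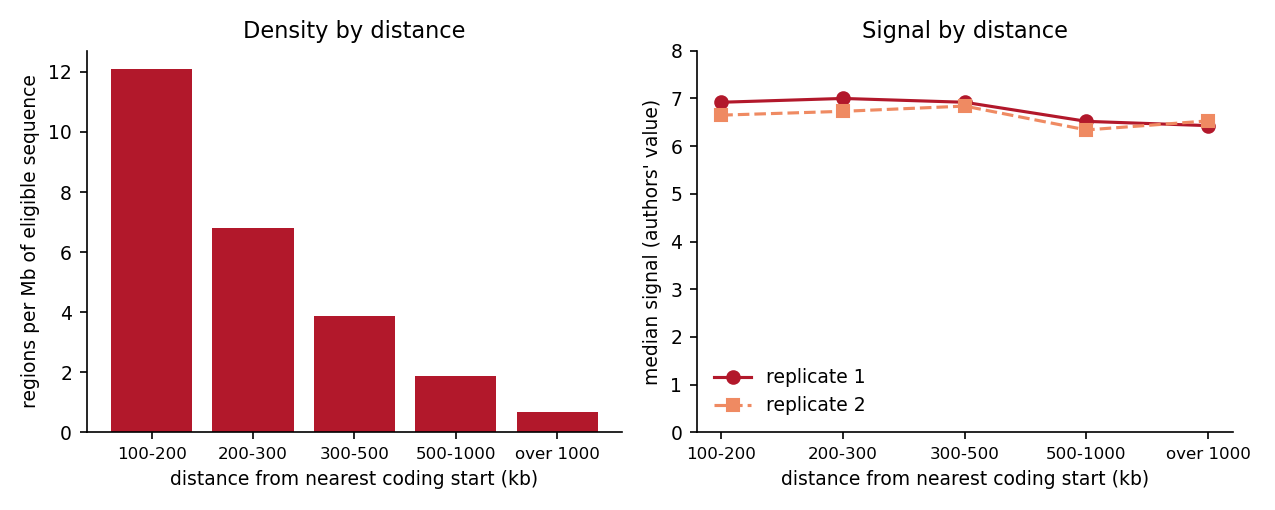
Far intergenic regions per Mb of eligible sequence (left) and their median signal in each replicate (right), by distance from the nearest protein-coding gene start in kb. Density is 12.1 per Mb in the nearest bin and 0.692 in the farthest, while the median signal stays between 6.34 and 7 in both replicates.

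The rule measures distance from coding gene starts, so a far region can still lie near the other end of a gene or near a noncoding gene. A coding gene body was within 10 kb of 238 far regions, and a gene of any kind was within 10 kb of 1264 (27.3%). The median gap to the nearest gene of any kind was 22.8 kb. An annotated transcript start was within 1 kb of 72.

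The 5 farthest regions lay in 4 deserts, the intervals between neighbouring coding gene starts. The region at chr1:101901713-101903346, 2130 kb from Cntnap5b and 2866 kb from the cadherin gene Cdh20, had a signal of 11.1 in replicate 1 and 10.4 in replicate 2. A pair of regions lay between Diaph2, a formin of the actin cytoskeleton, and Pcdh19, a protocadherin: the one at chrX:131464837-131465296 had 6.51 and 4.15, and the one at chrX:131329310-131330237 had 16.2 and 14.0. The region at chr1:141897408-141898444, 1652 kb from the potassium channel gene Kcnt2, had 5.40 and 5.99, and the one at chr12:93462169-93462487, 1613 kb from Sel1l, had 3.46 and 3.38. The signals of these 5 thus lay between 3.38 and 16.2, on both sides of the far medians.

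At the threshold itself, the members just inside 100 kb were chr9:14174766-14175338 near Sesn3, with signals of 6.29 and 5.09, and chr10:42118231-42118749 near Armc2, with 9.55 and 9.68. Just outside it were chr17:50409261-50409561 near Plcl2, with 4.43 and 3.69, and chr8:78113098-78113517 near Ttc29, with 4.43 and 5.84.

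Far regions had a slightly higher signal than intergenic regions nearer to genes, and a lower statistical score. The median signal of far regions was 6.92 in replicate 1 and 6.68 in replicate 2, against 6.52 and 6.31 in other intergenic regions, 6.23 and 6.04 in genic regions and 9.07 and 8.85 in promoter regions. Far minus other intergenic, the difference in median signal was 0.38 ± 0.0268 (SD, n = 2 replicates), and both far values lay above both other intergenic values. It was positive on 16 of the 20 chromosomes that hold far regions in replicate 1 and on 17 in replicate 2. The median −log10 q, which in common callers also grows with the number of reads, was 32.8 and 27.6 in far regions, against 36.0 and 30.8 in other intergenic regions. Within a replicate that difference was -3.20 ± 0.0184 (SD, n = 2), but it was smaller than the difference between the replicates, and replicate 1 of the far regions stood above replicate 2 of the others. It was negative on 15 chromosomes in replicate 1 and on 18 in replicate 2. No test over regions was run, since the regions of a list share a library and are not replicates.

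**Figure D3:**
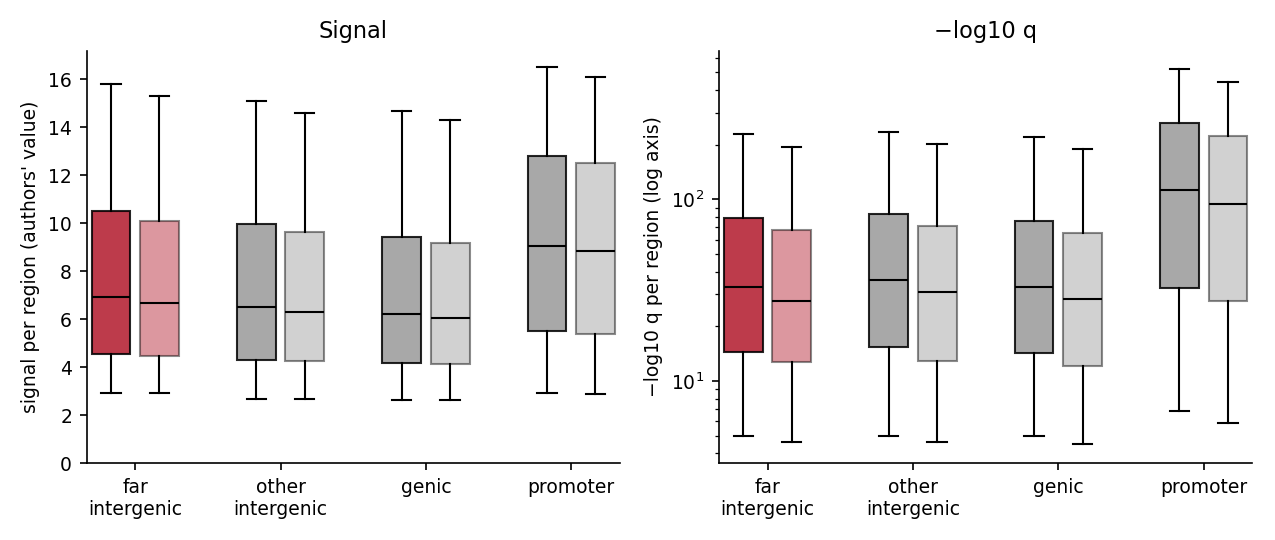
Signal (left) and −log10 q (right, log axis) per region in far intergenic, other intergenic, genic and promoter regions, for replicate 1 (darker box) and replicate 2 (lighter box). Boxes span the quartiles around the median line and whiskers reach the 5th and 95th percentiles; far medians of signal, 6.92 and 6.68, lie above the other intergenic and genic ones and below the promoter medians of 9.07 and 8.85.

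Among the strongest 10% of all shared regions by signal were 475 far regions (10.3%) in replicate 1 and 453 (9.79%) in replicate 2, against 8.03% and 7.85% of other intergenic regions. By −log10 q, 4.17% and 4.24% of far regions were in the top 10%, against 4.39% and 4.49% of other intergenic and 27.4% and 27.1% of promoter regions.

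Far regions were 643 bp wide in the median, with quartiles of 454 and 888 bp, against 667 bp for other intergenic, 659 bp for genic and 1147 bp for promoter regions. The authors' single-replicate regions had median widths of 574 and 572 bp in the far class, against 602 and 595 bp in the other intergenic class, so the class difference was larger than that between replicates. The far median was lower than the other intergenic one on 14 of 20 chromosomes. Wider than 2 kb were 32 far regions (0.692%), against 1.04% of other intergenic and 8.36% of promoter regions. Across far regions, signal and width had a Spearman rho of 0.516, given as a description over regions of the same libraries.

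Of the 5 widest far regions, 4 lay in the first 3.5 Mb of a chromosome and had signals below the far medians. They were chr17:3006463-3014664 (8202 bp, signal 4.98 and 4.15), chr4:3062222-3069580 (7359 bp, 6.11 and 5.68), chr16:3231745-3237623 (5879 bp, 4.29 and 4.61) and chr3:3011479-3015067 (3589 bp, 2.91 and 3.53), none of which has a coding start on its left. The fifth, chr6:41194591-41197431 (2841 bp, 6.90 and 7.15), lies 106 kb from the trypsin gene Try4, near the T cell receptor beta locus.

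The replicates gave close values in the far regions, all of which had to be in both lists to be counted. Spearman's rho of the signal between replicates was 0.946 over the 4626, against 0.956 in other intergenic and 0.980 in promoter regions. The signals were within 1.5-fold of each other in 96.3% of far regions, and the summits of the lists were 17.0 bp apart in the median. By more than 2-fold differed 3 of the 4626 far regions, against 56 of all 84380 shared regions. The 3 are named here after their values were seen. The one at chr7:136255447-136256115 had 8.17 in replicate 1 and 3.84 in replicate 2, the one at chr8:20120172-20120633 had 6.23 and 2.92, and the one at chr14:76281906-76282478 had 2.63 and 6.45.

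Of the regions of the replicate 1 list that met the position rule, 4694 of 5603 (83.8%) overlapped a region of the replicate 2 list, against 86.6% of all regions of that list. In the replicate 2 list the count was 4659 of 5086 (91.6%), against 93.0%. Both shares were thus slightly under those of all regions. Among the weakest 25% of the list by signal, 55.5% of far regions of replicate 1 and 71.9% of replicate 2 were found again, against 60.9% and 76.9% of all regions, while in the strongest 25% of the lists 99.8% and 99.9% of far regions were. The 909 far regions present only in replicate 1 had a median signal of 3.32, and the 427 present only in replicate 2 had 3.09.

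The strongest far regions stood apart from the rest. The highest signal, 34.3 in replicate 1 and 32.6 in replicate 2, was at chr3:5860341-5860823, between Gm8797 (110 kb) and 1700008P02Rik (760 kb). None of the 31-base stretches in its summit window occurs only 1 time in the assembly, and their median number of copies is 7. The next, chr3:62159051-62159489, had 33.2 and 31.8 and lies 179 kb from Arhgef26, a guanine nucleotide exchange factor, and 84.8% of its stretches occur 1 time. Both windows, as printed above, read like parts of the large subunit ribosomal RNA gene, a gene with many copies in the mouse genome. This was seen by eye and not by an alignment, since no full ribosomal RNA gene was used here. The 84.8% counts copies in the assembly alone and does not show that the sequence is single in the genome. The third, chr18:85697946-85698278, had 29.3 and 27.8, lies 697 kb from Neto1, a receptor-associated protein of neurons, and has a GC content of 64.2%; its sequence is not shown. Reads from near-identical copies cannot be told apart from reads of the place named, and the part of such copies in these signals was not tested.

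After a gap, the next 7 had signals from 18.6 to 21.5 over both replicates. The region at chr10:25128337-25129064, with 21.3 and 20.7, lies between Arg1, the arginase of the urea cycle, and Akap7, a protein kinase A anchor. The one at chr12:77887383-77887835, with 21 and 19.9, lies 307 kb from Gm6657 and 649 kb from Fut8, the core fucosyltransferase of glycans. The one at chr3:15139391-15139898, with 21.3 and 19.2, lies 253 kb from Car2, a carbonic anhydrase. The region at chr3:136556183-136556926, with 21 and 19.5, lies 114 kb from Ppp3ca, the catalytic subunit of calcineurin that activates NFAT in T cells, and 230 kb from Bank1, a B cell adaptor. The others were chr17:78086957-78087359 near Crim1 (20.4 and 20), chr10:124138289-124138999 between Fam19a2 and Slc16a7 (18.6 and 21.5) and chr17:74159463-74160217 between Srd5a2 and Memo1 (20.8 and 19.1). All 7 windows had at least 91.2% of stretches that occur 1 time. The 2 replicates placed each of these regions high, with no pair differing by 1.5-fold or more.

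Over all far regions, every 31-base stretch of the summit window was unique in 4161 (89.9%), against 86.4% of other intergenic and 91.4% of promoter windows. In 20 far windows (0.432%) under 50% were unique, and 5 of these lay in the first 3.5 Mb of a chromosome. No far window shared a stretch with mitochondrial DNA. Repeat-masked letters made up 11.4% of far windows, while they made up 44.3% of the eligible sequence. The mean GC content of far windows was 46.3%, against 48.7% in other intergenic, 47.9% in genic and 59.3% in promoter windows, and 39.3% over the eligible sequence. CpG sites averaged 2.38 per far window, 3.07 per other intergenic and 12.1 per promoter window.

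Far regions lay in groups. The median gap to the nearest far region was 6.41 kb, with quartiles of 2.45 and 19.2 kb, although the mean density was only 5.95 per Mb. That mean takes in the deserts without a far region, which hold 58.8% of the eligible sequence. The gaps of the other classes are not given here, so grouping is not shown to be particular to far regions. Another far region was within about 13 kb of 3113 (67.3%) and within 2 kb of 984. Runs in which neighbours were at most about 13 kb apart numbered 2496, of which 1513 were single regions, 983 held 2 or more and 16 held 10 or more. The median signal was 7.48 and 7.22 (replicates 1 and 2) for single regions, 6.94 and 6.76 in runs of 2 to 4, 6.34 and 6.16 in runs of 5 to 9, and 5.84 and 5.67 in runs of 10 or more. The median −log10 q went the other way, with 30.0 and 25.7 for single regions and 41.8 and 38.1 in the largest runs. The median width was 620 bp for single regions and 690 bp in the largest runs. Both replicates showed the same order of signal over the 4 sizes.

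The largest run held 33 far regions in 162 kb, at chr4:8888010-9050133 in the desert between Chd7, a chromatin remodeller, and Clvs1, a clathrin-associated lipid-binding protein. It started 198 kb from the start of Chd7, its median signal was 4.71 and 4.45, and its far regions covered 16.0% of it. A second run of 12 regions, at chr4:9066279-9136458, followed in the same desert. The next largest run held 22 regions in 63.9 kb, at chr15:62786213-62850064, 801 kb from Myc, the transcription factor of growth and proliferation. Its median signal was the lowest of the 10 largest runs, 3.81 and 4.23, while its far regions covered 24.2% of it, the highest share among them.

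The run at chr12:25213514-25281891 held 18 regions and started 116 kb from Id2, an inhibitor of E proteins that is used in effector T cells. The run at chr3:52554731-52648580 held 16, 286 kb from Foxo1, a forkhead factor of T cell homing and quiescence. Runs of 14 lay between the G protein regulator gene Rgs3 and Zfp618, between Nrp1 and Itgb1, and 103 kb from Tbl1xr1, a corepressor subunit. The first of these, at chr4:62731138-62823250, had the highest median signal among the 10 largest runs, 9.60 and 8.94. A run of 13 started 115 kb from Cd47, the surface protein read by phagocytes as a signal not to engulf the cell, with a median signal of 7.57 and 7.51. A run of 11 lay beside Med13l, a subunit of the Mediator kinase module, with 6.92 and 5.84.

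Counted by desert, the far regions were concentrated in few places. Of 2118 deserts with eligible sequence, 858 held a far region and 138 held 10 or more. These 138 held 2571 far regions (55.6%) in 10.4% of the eligible sequence. The 15 deserts with the most held 652 (14.1%) in 1.43% of it. The deserts without a far region held 458 Mb, 58.8% of the eligible sequence, and 729 of the 1280 deserts with over 100 kb eligible were empty. Of 205 deserts with at least 1 Mb eligible, 166 held under 2 far regions per Mb.

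The desert with the most far regions, 64 in 1122 kb of eligible sequence, was on chromosome 12 between Vrk1, a nuclear kinase, and 3110018I06Rik. Its far regions had a median signal of 6.37 in replicate 1 and 6.62 in replicate 2, and ranged from 2.52 to 16.7 and from 2.66 to 16.9. The coding gene after 3110018I06Rik, looked up after the values were seen, is Bcl11b, a zinc finger factor needed for T cell commitment. The far regions lay 623 to 1888 kb from its start. On the other side, the coding gene before Vrk1 is Papola, a poly(A) polymerase, 331 to 1596 kb from the far regions and with a promoter signal of 15.9 and 13.1. The next genes were looked up on both sides of all 15 deserts with the most far regions, and those of the other 14 are not named. The promoter of Bcl11b had a signal of 7.77 and 6.96 and that of Vrk1 12 and 11.9, while that of 3110018I06Rik had no shared region.

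The desert of chromosome 3 between Foxo1 and Cog6, a Golgi subunit, held 56 far regions at 122 per Mb, with a median of 6.54 and 6.04. They lay up to 636 kb from Foxo1, whose promoter had a signal of 4.90 and 4.64, against 17.5 and 14.0 at Cog6. The desert of chromosome 16 between Ccdc54 and Cblb also held 56, at 45.8 per Mb, with a median of 5.94 and 5.38. Cblb is a ubiquitin ligase that restrains T cell activation, and its promoter had a signal of 12.2 in replicate 2 and slightly more in replicate 1, while Ccdc54 had no shared region there. In the Id2 to Rnf144a desert of chromosome 12 were 53 far regions, at 69.9 per Mb, 117 to 1180 kb from Id2. Its strongest had 19.3 and 18.6, more than the promoter of Id2 at 8.97 and 9.35.

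**Figure D4:**
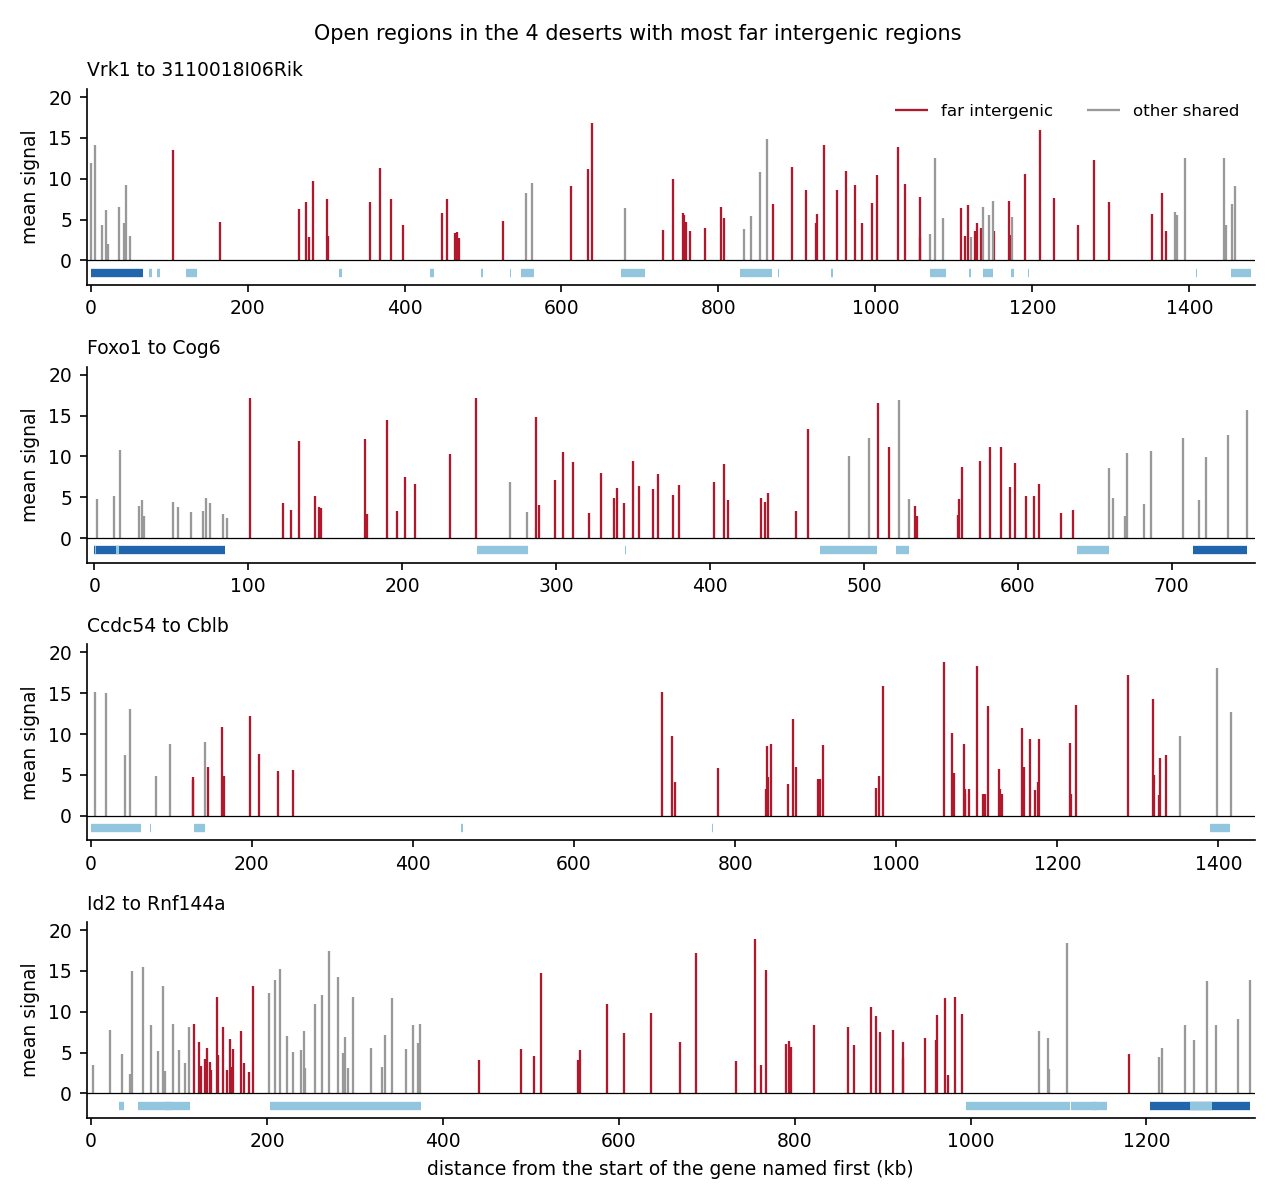
Shared open regions in the 4 deserts that hold the most far intergenic regions, by distance in kb from the start of the gene named first, with line height giving the mean signal of both replicates. Far regions are red, other shared regions grey; bars under the axis are annotated genes, dark blue for coding and light blue for noncoding. The 4 deserts hold 64, 56, 56 and 53 far regions, and a stretch without any stands in the left part of the Ccdc54 to Cblb desert.

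The desert between Cd83, a surface protein of activated cells, and Jarid2, a partner of Polycomb repressive complex PRC2, held 49 far regions in 487 kb of eligible sequence, with a median signal of 5.95 and 6.10. The Myc to Gsdmc desert also held 49, at 96.8 per Mb and a median of 5.73 and 5.68. These lay 397 to 1181 kb from Myc, and a further 23 lay on the other side of Myc, toward A1bg, 121 to 883 kb away. The Myc promoter had 5.05 in both replicates. The Chd7 to Clvs1 desert held 47 at 156 per Mb, with the lowest median of the 15, 4.79 and 4.61. Its weakest far region had 1.57 and 1.30 and its strongest 17.7 and 18.4.

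Between Celf2, a splicing regulator of T cells and neurons, and 4930412O13Rik were 44 far regions in 1992 kb, at 22.1 per Mb, and their median of 7.78 and 7.04 was among the highest of the 15. The Trib2 to Lpin1 desert held 38, with a median of 5.27 and 5.44. Trib2 is a pseudokinase and Lpin1 a phosphatidate phosphatase. The desert between Ptger4, the prostaglandin E2 receptor EP4, and the endocytic adaptor gene Dab2 held 38, with 7.41 and 6.83. Tox, an HMG-box factor of T cell development and exhaustion, had 35 in the desert toward Car8, 121 to 1123 kb from its start, with a median of 6.37 and 5.84.

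The remaining 4 of the 15 deserts held 28 to 34 far regions each. On chromosome X, 34 lay between H2al1j and Bcor, which encodes a corepressor of BCL6, with a median of 6.30 and 6.07. Beside Gadd45g, a stress protein that promotes interferon gamma production in T-helper 1 cells, 32 lay in the desert toward Diras2, with 6.65 and 6.30. The Klf6 to Pitrm1 desert held 29, with 7.28 and 6.48, and the Kif2a to Smim15 desert held 28, with 7.82 and 7.22. At their own promoters the signals were 4.65 and 4.83 at Gadd45g, 8.09 and 7.92 at Klf6 and 6.19 and 5.30 at Bcor.

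Ranked by far regions per Mb among deserts with at least 5, the densest were short. The interval between Tnfsf11, the cytokine RANKL, and Akap11 held 7 far regions in 28.8 kb of eligible sequence, a density of 243 per Mb, with a median of 4.19 and 4.23. Klf14 to Mkln1 had 218 per Mb from 5 regions, Chst11 to Slc41a2 had 200 per Mb from 7, and Slc17a6 to Gas2 had 181 per Mb from 5. Nrp1 to Itgb1, a semaphorin receptor and the beta-1 integrin, had 170 per Mb from 14, and the median there was 6.53 and 6.25. Higher medians were seen between Mapkap1 and Gapvd1 (169 per Mb, 11.4 and 10) and between Ubr2 and Mrps10 (165 per Mb, 12.2 and 10.9), each from 5 regions. Between Tnfaip3, which encodes the NF-kappaB inhibitor A20, and Olig3 were 12 far regions at 159 per Mb, with 9.17 and 7.72, and between Tmem189 and the phosphatase gene Ptpn1 were 6 at 158 per Mb. The last of the 10 was the Chd7 to Clvs1 desert, with 47 regions in 301 kb of eligible sequence. The densities of the first 4 rest on 5 to 7 regions each.

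At the other extreme, 5 of the 10 largest deserts without any far region lay beside a protocadherin gene of neural cell adhesion. The largest 3 were Olfm4 to Pcdh17, with 4.15 Mb of eligible sequence, and Pcdh20 to Pcdh9, with 4.05 Mb, both on chromosome 14, and Celf4 to Pik3c3, with 3.80 Mb on chromosome 18. Those beside Pcdh10, Pcdh7 and Pcdh18 held 3.42, 3.33 and 3.02 Mb. These genes were named after the values were seen. The share of all large deserts that lie beside a protocadherin gene was not counted, so the 5 have no background beside them. The desert between Diaph2 and the protocadherin gene Pcdh19, with 3101 kb eligible, held 17 far regions.

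The genes beside well-filled deserts more often had an open promoter. Of the coding genes beside a desert with at least 10 far regions, 221 of 266 (83.1%) had a shared region within 1 kb of a start, and of those beside a desert with 1 to 9 it was 978 of 1330 (73.5%). Of the genes beside a desert with over 100 kb eligible and no far region it was 453 of 1229 (36.9%). Of all coding genes it was 65.9%. Both replicates enter each shared region, so these counts have no spread between replicates and no test.

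Some genes of T cell regulation stood beside the deserts with at least 10 far regions. The gene lists were chosen with earlier results of these data known, so the shares below are a description and not a test. Of 89 listed regulators, 21 (23.6%) flanked a desert with at least 10 far regions, against 6 of 88 genes of neural cell adhesion and synapse (6.82%). It was 3 of 93 developmental factors (3.23%) and 1.21% of all coding genes. The developmental list holds homeobox, SOX, FOX and TBX factors and factors of other families. Beside a desert with any far region stood 39 T cell genes (43.8%), 38 neural genes (43.2%) and 28 developmental genes (30.1%), against 7.13% of all coding genes. The lists differed in how much eligible sequence lay beside them. The deserts beside T cell regulators held 640 far regions in 21.6 Mb, or 29.7 per Mb. Those beside neural genes held 174 in 149 Mb, or 1.17 per Mb, and those beside developmental factors held 125 in 38.3 Mb, or 3.27 per Mb, against 5.95 per Mb over all deserts. Among these deserts, 4 of 52 beside T cell regulators were empty, against 93 of 132 beside neural genes and 48 of 82 beside developmental factors. The deserts beside neural genes held more eligible sequence each, on average, than those beside T cell regulators. Far density fell with distance from the nearest coding start, and the part of desert length in the densities by list was not tested. An open promoter was present at 88 of 89 T cell regulators (98.9%), 23 of 88 neural genes (26.1%) and 71 of 93 developmental factors (76.3%), beside the 65.9% of all coding genes.

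The T cell genes with at least 10 far regions in a neighbouring desert included Ifng, the gene of interferon gamma, which T-helper 1 cells make. Ifng had 14 in the desert toward Dyrk2, 121 to 325 kb from its start at 66.3 per Mb. Their median signal was 8.11 and 7.39, against 7.25 and 6.55 at the promoter of Ifng. Among other transcription factors, Zeb2 had 22, Ets1 had 21 within 460 kb, Runx1 had 19, Ikzf2 had 17, Tcf4 had 17, Satb1 had 14, Zeb1 had 13, Nr4a3 had 13 and Maf had 12. Each of these deserts has another coding gene at its other end. The 22 of Zeb2 lay 118 to 3558 kb away, toward Acvr2a, at 7.31 per Mb, near the 5.95 per Mb over all deserts. The 17 of Ikzf2 lay 174 to 445 kb away, and most of them were nearer to Erbb4 at the other end. Satb1, a chromatin organiser of T cells, had the highest median of the 21 genes in replicate 1 and in replicate 2, 9.54 and 8.86. At Zeb1 the medians were the most unlike, 6.42 and 4.79.

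Among receptors and other surface proteins, the chemokine receptor gene Cxcr4 had 16, Ptprc, which encodes CD45, had 16, the costimulatory receptor gene Icos had 15 and the inhibitory receptor gene Pdcd1 had 12. The medians were 6.18 and 6.41 beside Cxcr4, 7.82 and 7.22 beside Ptprc, 7.06 and 6.32 beside Icos and 8.84 and 8.29 beside Pdcd1. The far regions beside Pdcd1 lay 403 to 1069 kb away, farther than the 113 to 283 kb of Cxcr4. They stood at 11.4 per Mb in the desert toward Fam174a, and some were nearer to Fam174a than to Pdcd1. Bcl2, an inhibitor of cell death, had 12 at 84.6 per Mb, and Dusp4, a phosphatase of MAP kinases, had 18 with 8.81 and 8.72.

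The 6 neural genes were Flrt2 with 23 far regions, Lrrtm3 with 19, Pcdh19 with 17, Csmd3 with 13, Cntn3 with 12 and Cntn5 with 10. In 4 of these deserts the far regions stood toward the gene at the other end. The nearest was 2230 kb from Flrt2, 2224 kb from Pcdh19 and 1470 kb from Csmd3, and those beside Lrrtm3 were 2717 to 2905 kb away, toward Jmjd1c, which encodes a protein of the histone demethylase family. A shared region at the promoter was present at Pcdh19 and Csmd3 and absent at the other 4. The 3 developmental factors were Sall3 with 20, Sox5 with 13 and Tshz1 with 11, and all had an open promoter.

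Motif letters were searched in about 200 bp at each summit, on both strands, as exact matches in which N is any base, and matches of different motifs may overlap. The AP-1 letters TGANTCA were in 1653 far windows (35.7%), against 29.3% of other intergenic, 31% of genic, 12.1% of promoter and 26.1% of all shared windows. The RUNX letters TGTGGTT were in 12.2% of far windows, against 9.43% of all, and the IRF letters GAAANNGAA in 11%, against 8.66%. The GATA letters AGATAA were in 8.67%, against 6.93%, and the TCF letters CTTTGAT in 4.02%, against 3.23%.

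Letters rich in G and C were rarer in far windows. The KLF and SP letters GGGCGG were in 3.70% of far windows, against 6.45% of other intergenic, 39.4% of promoter and 14.0% of all shared windows. The CTCF core AGGNGGCNC was in 176 far windows (3.80%), against 6.58% of other intergenic and 6.35% of all. The ETS letters GGAAGT were in 19.9% of far windows, against 20% of all, the T-box letters AGGTGTG in 5.06%, against 5.09%, the STAT letters TTCCNGGAA in 1.25%, against 1.16%, and the NFY letters CCAAT in 20.8%, against 21.1%. These 4 shares lay within 0.31 percentage points of those of all shared windows, but over the whole shared region far minus all was -2.99 points for ETS and -3.54 for T-box, where far regions are 643 bp wide in the median and all shared regions 736 bp. None of the 11 motifs was found in 21.2% of far windows, against 23.3% of all.

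**Figure D5:**
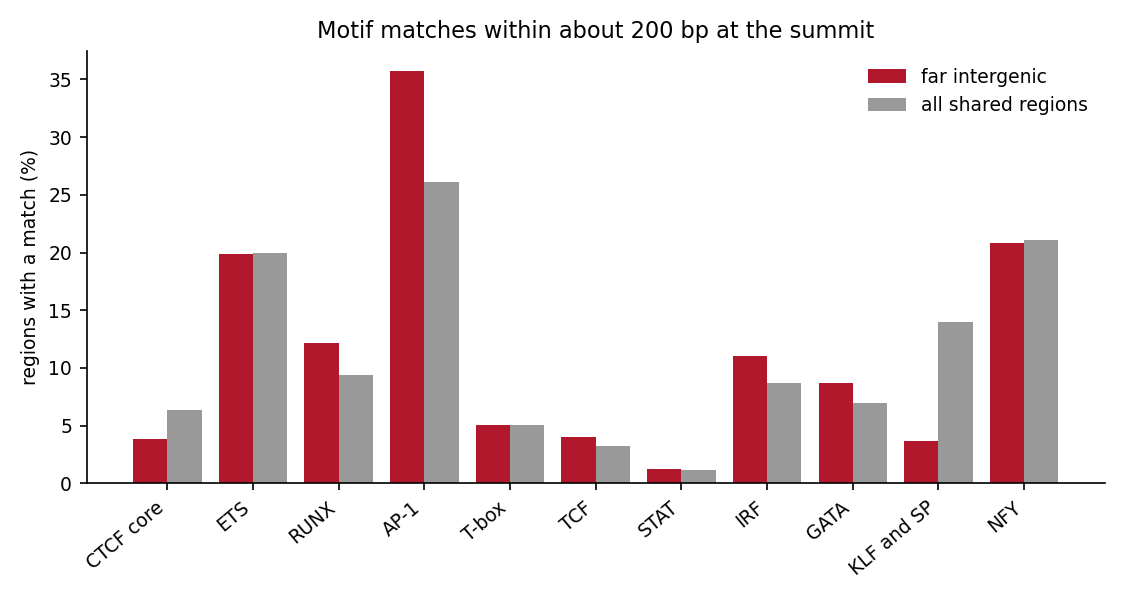
Share of far intergenic windows (red) and of all shared windows (grey) with at least 1 exact match to each motif within about 200 bp at the summit, in percent. AP-1 is at 35.7% in far windows and 26.1% in all, and KLF and SP at 3.70% and 14.0%.

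GC content differs between the classes and moves with these shares, so they were also set side by side within bands of GC. AP-1 letters were in 42.0% of far and 36.8% of other intergenic windows under 40% GC, in 38.3% and 34.2% at 40 to 45%, in 36.3% and 32.6% at 45 to 50%, in 32.3% and 25.7% at 50 to 55%, and in 18.3% and 17.1% at 55% or more. The far share was higher in all 5 bands. The CTCF core was lower in far windows in all 5 bands, for example 3.79% against 4.77% at 45 to 50% GC and 7.09% against 9.07% at 50 to 55%. KLF and SP letters had no such constant order, with 8.47% of far and 6.97% of other intergenic windows at 50 to 55% GC, and 14.7% and 22.9% at 55% or more. For RUNX the order also changed, with 14.9% and 12.3% at 40 to 45%, and 8.58% and 8.71% at 50 to 55%.

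Far regions with AP-1 letters had a higher signal than those without. The medians were 7.75 in replicate 1 and 7.68 in replicate 2 with the letters, against 6.37 and 6.14 in the 2973 far regions without them, and the widths were 641 and 643 bp. In other intergenic regions the same comparison gave 7.34 and 7.21 with and 6.23 and 6.03 without. With far regions split into 4 equal parts by signal, the share with AP-1 letters was 25.8% in the weakest part, 32.4% and 37.9% in the middle parts and 46.8% in the strongest. The CTCF core was in 3.11%, 3.98%, 3.63% and 4.49% of the same parts. Far regions with the CTCF core had medians of 7.41 and 7.14, against 6.90 and 6.65 without, and 38.6% of them stood alone, against 32.5% of the others. A match is a description of the letters and does not show that a factor was bound.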

How the data were processed

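Open regions of 2 ATAC-seq replicates of T-helper 1 cells were analysed. Each list was made from 1 replicate, on mm10, per the labels. An aligner and a region caller were not given in the sources used here. Region names hold dedup, sorted, masked, insert and ASTARR, with a number of hours, and their meaning is not stated, so the assay is given as labelled. Column 7 of the authors' deposited lists is a signal value per region, columns 8 and 9 are −log10 p and −log10 q as deposited, with a smallest −log10 q of 1.01 in replicate 1 and 1.00 in replicate 2, and column 5 is a display score of the authors that was not used. Each such value is the authors' and belongs to 1 region of 1 list. The total read number is not in the lists, so no counting interval is given.

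Regions on chromosomes 1 to 19, X and Y were joined where the lists overlapped by at least 1 bp, and a shared region kept the strongest signal of each replicate. Classes came from GENCODE M21 (21911 coding genes; starts are the 5′ ends of gene records), and GC, masking, copies of 31-base stretches and motifs from GRCm38.p6. Neighbouring coding gene starts bound a desert. Runs allow gaps of about 13 kb. Regions named are the 10 strongest, 5 widest, 5 farthest, 2 on each side of the threshold and the 10 largest runs; genes named flank the 15 deserts with most members, the 10 densest with at least 5, or the strongest regions, or belong to a list and flank a desert with at least 10. The members and lists were chosen with earlier results of these data known. Some markers of other cell types are not reported here. With 1 group, no test was run. The joining, the position rule and the runs were checked on simulated lists. Tools were Python 3.11.15, numpy 2.4.6, pandas 2.3.3, numba 0.67.0 and matplotlib 3.10.9. Alternatives were distances of 50 and 200 kb, other starts and gene records, stricter overlap and −log10 q, other gaps and windows, and each replicate alone.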

Additional observations from a re-analysis of the deposited data

Results flagged for a closer look

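Signal was present in regions outside every comparison, on sequence with no position on a chromosome or on mitochondrial DNA. There were 89 such regions in replicate 1 and 85 in replicate 2. The rule on distance from a coding gene start could not be applied to them, and they were left out.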

How the results depend on the processing

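The distance set in the rule moved the counts. With 50 kb and 200 kb in place of 100 kb, there were 8593 and 1965 far regions against 4626, 8.90 and 3.52 per Mb against 5.95, 1858 and 401 runs of at least 2 against 983, and 222 and 61 deserts with at least 10 against 138. Of the 15 deserts with the most far regions, 14 and 12 were again among the 15 at these distances, and 11 to 14 under the other settings. The far minus other intergenic difference in median signal was positive under every setting, 0.38 as reported, 0.51 at 50 kb, 0.34 at 200 kb, 0.43 with the starts of all coding transcripts, 0.43 outside coding genes only, 0.36 with an overlap of at least 50% of the shorter region, and 0.24 to 0.28 with 1 list alone. The difference in median −log10 q was negative under every setting, -3.20 as reported, -1.73, -3.84, -2.90, -1.79 and -3.49 under the same alternatives in that order, -3.38 at a −log10 q of at least 2, and -2.79 to -2.72 with 1 list alone.

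The median signal of far regions was 7.31 at a −log10 q of at least 5 and 5.95 to 6.15 with 1 list alone, against 6.80, the mean of the replicate medians. The median width was 656 bp at 50 kb, 630 bp at 200 kb, 640 bp with the starts of all coding transcripts, 655 bp outside coding genes only, 645 and 669 bp at a −log10 q of at least 2 and 5, and 505 to 536 bp with 1 list alone, against 643 bp. A single list also holds the weak regions that the other lacks, and its regions are not joined. Far minus all shared, the share with ETS letters was -0.06 percentage points as reported, but 0.13 in a window of about 100 bp and 0.31 and 0.24 at the summits of replicate 2 and replicate 1 alone, and the share with T-box letters was -0.04 as reported and 0.07 and -0.20 at the summits of replicate 2 and replicate 1 alone. In the whole shared region these 2 were -2.99 and -3.54. The other 9 motifs kept their direction, but their size moved: in the whole region the CTCF core was at -8.05 against -2.55, KLF and SP at -16.46 against -10.26, RUNX at 1.66 against 2.81, TCF at 1.75 against 0.79 and NFY at -0.91 against -0.31, and in the window of about 100 bp KLF and SP was at -6.49, AP-1 at 6.65 against 9.68, GATA at 0.76 against 1.74, IRF at 1.05 against 2.32, TCF at 0.44, STAT at 0.16 against 0.09 and NFY at -0.97. NFY was at -0.51 at the summits of replicate 1 alone. Without the 20 windows that are mostly not unique, an alternative chosen after seeing the data, 4606 regions had the same median signal of 6.80 and a difference of 0.37 from other intergenic regions, and with single regions of both classes only, chosen likewise, the difference was 0.36. No paired analysis was possible because there is 1 group. The number of reads is unknown, so a region missing from a list may be undetected and not closed.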
